A study of Mus musculus with 12 samples.

Results

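Fibrillar collagen is built by enzymes that act in a fixed order, and 10 genes of this machinery were followed in mouse lung endothelial cells (MLECs). They were chosen by name, from 28689 genes in the deposited table, as the lysyl oxidases Lox, Loxl1, Loxl2, Loxl3 and Loxl4, the lysyl hydroxylases Plod1, Plod2 and Plod3, and the prolyl 4-hydroxylase alpha subunits P4ha1 and P4ha2. RNA was sequenced in 6 libraries of CTR mice and 6 libraries of dKO mice. Both groups were adult male mice with floxed alleles of Sp1 and Sp3 on both chromosomes, and both received tamoxifen. The dKO mice (VE-CAD-CreERT2+/Sp1 fl/fl/Sp3 fl/fl) also carried a tamoxifen-inducible Cre driven by the VE-Cadherin promoter, and the CTR mice (VE-CAD-CreERT2-/Sp1 fl/fl/Sp3 fl/fl) were littermates without it, although GEO lists the latter as WT. Cells were picked from lung with beads against CD31 and then ICAM2 and were passaged in culture. By design Cre acts in cells that use the VE-Cadherin promoter, and other cells in the culture would keep both genes. Deletion by cell type was not measured in these libraries. The number of mice behind a library is not given, and p-values measure the spread between libraries only.

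Prolyl 4-hydroxylases and lysyl hydroxylases modify procollagen chains in the endoplasmic reticulum with the help of iron, 2-oxoglutarate, ascorbate and oxygen. Hydroxyproline keeps the triple helix stable at body temperature, whereas hydroxylysine carries sugars and sets the kind of crosslink that can form. Outside the cell the lysyl oxidases, which need copper, turn lysines of collagen and elastin into aldehydes that then join neighbouring molecules, which in the vessel wall gives stiffness and recoil. Sp1 and Sp3 are zinc finger transcription factors that bind GC boxes near gene starts.

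The value compared is the FPKM, the fragments counted on a gene relative to its length and to the library total. Libraries held from 15523054 to 17938286 fragments, and the members were covered by 520 fragments (Loxl4) to 52949 fragments (Lox) per library, so that Loxl4 has the least certain counts. Sp1 had 19.4 FPKM in the lowest, 20.7 in the median and 23.7 in the highest CTR library, and 8.42, 10.99 and 12.1 FPKM in dKO, with a log2 fold change of −0.95 ± 0.09 (SE; limma, Benjamini-Hochberg adjusted p = 5.68e-06) and no overlap between groups. Sp3 had 24.2, 27.7 and 31.1 FPKM in CTR and 22.5, 25.3 and 26.9 FPKM in dKO, with a log2 fold change of −0.14 ± 0.07 that did not pass the test (limma adjusted p = 0.0902). Sp1 therefore followed the labels in all 12 libraries, while 2 of 6 dKO libraries lay below all CTR libraries for Sp3. The exons removed from the floxed alleles are not given in the sources used here, so a value over the whole gene may not read the loss.

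The MLEC label was compared with marker genes of several cell types. The 10 endothelial markers were all detected and all higher in dKO, with a summed level of 170 to 257 FPKM in CTR and 313 to 432 FPKM in dKO and with Cdh5, the VE-Cadherin gene, the most abundant. The macrophage markers, led by the lysozyme gene Lyz2, summed to 758 to 1297 FPKM in CTR and 1808 to 3793 FPKM in dKO, and 6 of 7 tested were higher and 1 lower. Of the mesothelial markers, led by Msln in CTR and Upk1b in dKO, 4 of 5 were higher, with sums of 21.4 to 30.6 FPKM in CTR and 58.1 to 135 FPKM in dKO. Fibroblast markers summed to 152 to 478 FPKM in CTR and 125 to 499 FPKM in dKO, with Pdgfra the most abundant in CTR and Mfap4 in dKO, and 1 of 8 tested higher and 2 lower. Smooth muscle and pericyte markers, mostly Acta2, summed to 509 to 1428 FPKM and 465 to 851 FPKM, and 2 of 7 tested were higher, while lung epithelial markers, mostly Sftpc, summed to 82.1 to 482 FPKM and 143 to 345 FPKM, and 1 of 5 was higher. Among defining markers, Lum, Clec3b, Tagln and Siglecf did not pass the filter on low values. The background for these counts is that 53.1% of all genes tested were called, 20.4% higher and 32.6% lower. The part of these other cells in the values given here was not tested, and in bulk RNA fewer cells of a type and less RNA per cell cannot be told apart.

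Because Sp1 and Sp3 bind GC boxes, the letters around the members' starts were read from GRCm39, the build of the files. In the window from 250 bases before to 50 bases after the start of 1 annotated transcript per gene (its canonical transcript), GGGCGG or CCGCCC was found in 8 of 10 members, against 56.3% of 12375 promoters searched, and was absent from that of Loxl3 and Plod3. The core of the hypoxia response element (ACGTG or GCGTG, on either strand) was also found in 8 of 10 members, against 59.3% of promoters, and was absent from that of Loxl1 and Loxl2. A match is a description of letters and not of binding. Shown here are the 250 bases before the start of P4ha1 (chr10:59158842-59159091, plus strand), the member with the largest rise, and of Loxl3 (chr6:83010902-83011151, plus strand), the member with the largest fall, and the 30 bases before the canonical transcript of Plod1 (chr4:148021225-148021254, minus strand) and Plod2 (chr9:92424246-92424275, plus strand), which moved in opposite directions. For Plod1 and Plod2 the canonical transcript begins downstream of the outermost annotated start of the gene, so these 30 bases lie inside the gene and in untranslated exon of other transcripts. Sequences run 5′ to 3′ and GC boxes are in capitals.
P4ha1: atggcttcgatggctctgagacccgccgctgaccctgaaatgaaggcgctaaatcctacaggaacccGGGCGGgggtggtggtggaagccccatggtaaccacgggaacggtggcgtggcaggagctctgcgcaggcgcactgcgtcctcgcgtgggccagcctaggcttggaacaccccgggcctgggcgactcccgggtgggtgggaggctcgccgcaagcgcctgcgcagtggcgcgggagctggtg
Loxl3: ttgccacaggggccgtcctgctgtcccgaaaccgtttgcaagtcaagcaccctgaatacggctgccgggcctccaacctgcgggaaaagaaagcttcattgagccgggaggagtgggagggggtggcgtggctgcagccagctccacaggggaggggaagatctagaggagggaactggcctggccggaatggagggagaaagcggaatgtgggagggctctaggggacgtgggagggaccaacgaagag
Plod1: ggcgtgcgcggcaCCGCCCccgGGGCGGgc
Plod2: agcgccCCGCCCccggccctggccCCGCCC
Plod1 and Plod2 each held 2 GC boxes in these 30 bases. Over the whole window searched, Plod1 held 3 and Plod2 held 2. The part of GC boxes in the changes was not tested.

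The 10 members were all above the filter of 1 FPKM in at least 6 libraries, and they covered a wide range of levels. Per length of gene, Lox was the highest in both groups, with a mean of 427 ± 29.2 FPKM (SD over 6 libraries) in CTR and of 506 ± 78.4 FPKM in dKO. Loxl1 followed at 124 ± 17.5 FPKM in CTR and 124 ± 25.6 FPKM in dKO. Loxl4 and P4ha2 were the lowest in both groups, and their libraries overlapped with each other in level. In CTR the order between them was Loxl2, Loxl3, Plod2, P4ha1, Plod3 and Plod1, and each of these overlapped its neighbour, so this order was not firm. In dKO, P4ha1 came next after Loxl2, which it overlapped, and stood apart from Plod1 below it. Plod2 and Loxl3 came after both other lysyl hydroxylases. From Plod1 through Plod3 and Plod2 to Loxl3 each gene overlapped the next, so this order was not firm either. Loxl1 and Loxl2 also overlapped in dKO.

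**Figure D1:**
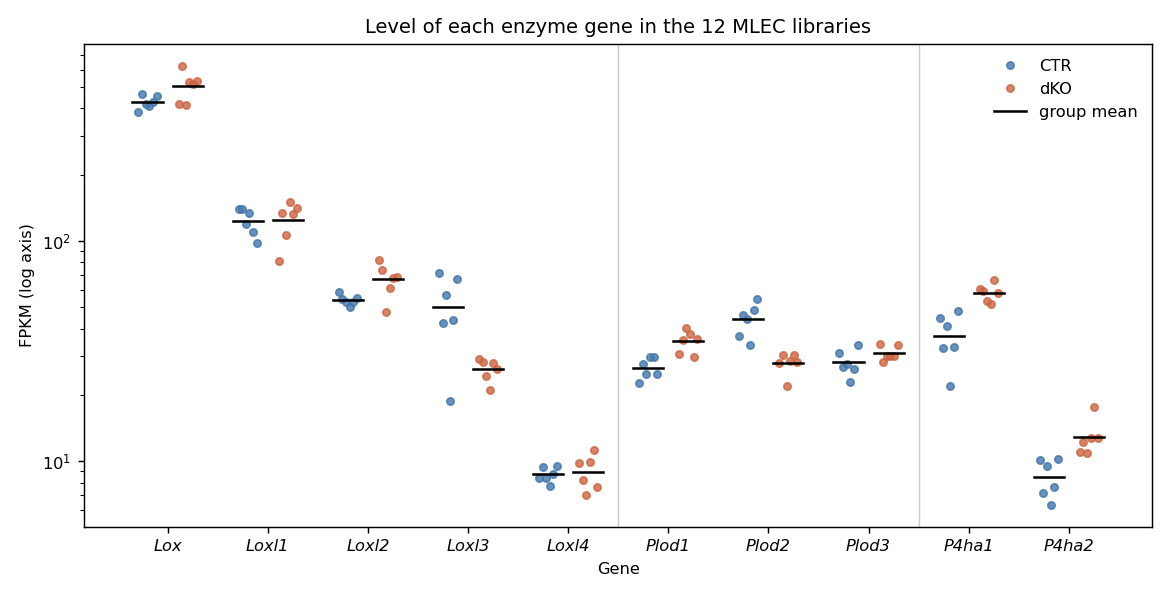
FPKM (log axis) of the 10 enzyme genes, grouped by family, in 6 CTR (blue) and 6 dKO (orange) libraries, with each point a library and each black line a group mean. The points of Plod1, Plod2, P4ha1 and P4ha2 do not overlap between groups, while a single CTR library of Loxl3 lies at 18.7 FPKM, below all dKO libraries.

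For dKO against CTR, 6 of 10 members passed the test (adjusted p under 0.05 over all 12467 genes tested), 4 of them higher (Loxl2, Plod1, P4ha1 and P4ha2) and 2 lower (Loxl3 and Plod2). The background is that 53.1% of all genes tested were called, 20.4% higher and 32.6% lower, so the share of members called is near the background. The higher genes were 38.5% of all calls, and 51.1% after median-of-ratios scaling. In 4 of 10 members the groups of libraries did not overlap, against 27.4% of all genes tested. The median log2 fold change was 0.19 over the members and −0.10 over all genes tested. Members of the same family moved in opposite directions among the lysyl oxidases and the lysyl hydroxylases, whereas the prolyl 4-hydroxylase subunits P4ha1 and P4ha2 both rose.

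**Figure D2:**
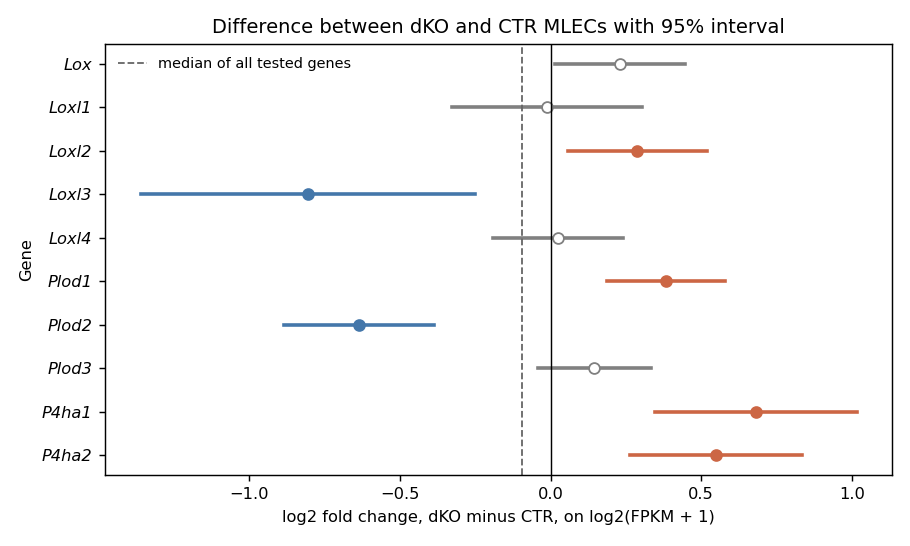
Log2 fold change of each member (dKO minus CTR, on the log2(FPKM + 1) scale) with its 95% interval, in orange for a rise past the test, blue for a fall past the test and open grey for no call, with the median of all genes tested as a dashed line at −0.10. P4ha1 has the highest value, at 0.68, and Loxl3 the lowest, at −0.80; after median-of-ratios scaling Lox and Plod3 would also count as higher.

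Prolyl 4-hydroxylase is a tetramer of alpha subunits, which hold the active site, and beta subunits, the protein disulfide isomerase P4hb. P4ha1 (ENSMUSG00000019916, chr10:59159092-59209126), the main alpha subunit in most cells, had 22.1 FPKM in the lowest, 37.2 in the median and 48.0 in the highest CTR library, and 51.9, 58.5 and 66.5 FPKM in dKO. All 6 dKO libraries lay above all CTR libraries. The mean was 1.58-fold that of CTR, with a log2 fold change of 0.68 ± 0.15 (SE; limma adjusted p = 0.00262; exact two-sided permutation p = 0.00216, the smallest that 6 against 6 libraries can give). CTR replicate 4 was the lowest for this gene, and without it the log2 fold change was 0.55. P4ha2 (ENSMUSG00000018906, chr11:53981553-54022494), the alpha subunit that is prominent in cartilage and endothelium, had 6.34, 8.56 and 10.3 FPKM in CTR and 10.9, 12.5 and 17.6 FPKM in dKO. Its groups were also apart, with a narrow gap between them and dKO replicate 5 well above the other dKO libraries. The log2 fold change of P4ha2 was 0.55 ± 0.13 (limma adjusted p = 0.00378).

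P4ha1 and P4ha2, the alpha subunits among the members, rose in proportion. P4ha1 made up 81.0% ± 1.69 of their summed FPKM in CTR and 82.0% ± 2.02 in dKO (SD, n = 6), while the sum went from 45.5 ± 11.2 FPKM to 71.2 ± 7.16 FPKM. The ratio of P4ha1 to P4ha2 ran from 3.48 to 4.67 in CTR and from 3.78 to 5.51 in dKO, and so overlapped between groups. P4hb, the beta subunit, also rose, from 315 ± 24.9 FPKM to 406 ± 25.4 FPKM (log2 fold change 0.37 ± 0.07, limma adjusted p = 0.000789). In contrast P4ha3, the third alpha subunit, fell from 17.3 ± 2.46 FPKM to 9.47 ± 2.47 FPKM (−0.83 ± 0.16, limma adjusted p = 0.000888). The 3 alpha subunits thus did not move together. The shares given above leave out P4ha3, whose CTR mean was above that of P4ha2 (8.51 FPKM), so they are not shares of all alpha subunits.

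Lysyl hydroxylases differ in the lysines they reach. Plod1 (ENSMUSG00000019055, chr4:147991574-148021356) encodes the enzyme for lysines of the triple helix, and had 22.6 FPKM in the lowest, 26.4 in the median and 29.7 in the highest CTR library against 29.8, 35.7 and 40.4 FPKM in dKO. The groups only just did not overlap, since the lowest dKO library (replicate 5) was almost level with the highest CTR library. The log2 fold change was 0.38 ± 0.09 (SE; limma adjusted p = 0.00348). Plod2 (ENSMUSG00000032374, chr9:92424119-92490494) encodes the enzyme that acts on telopeptide lysines, the step that directs collagen to pyridinoline crosslinks, and had 33.7, 45.2 and 54.7 FPKM in CTR against 22.0, 28.4 and 30.3 FPKM in dKO. All dKO libraries were below all CTR libraries, with dKO replicate 3 the lowest. The dKO mean was 0.631 of the CTR mean, a log2 fold change of −0.63 ± 0.12 (limma adjusted p = 0.000568; exact two-sided permutation p = 0.00216). Plod3 (ENSMUSG00000004846, chr5:137015827-137025502), whose protein also adds sugars to hydroxylysine, had 23.0, 27.2 and 33.6 FPKM in CTR and 28.2, 30.1 and 34.2 FPKM in dKO. The groups overlapped and Plod3 did not pass the test (0.15 ± 0.09, 95% interval −0.04 to 0.33, limma adjusted p = 0.173), except after median-of-ratios scaling (0.23, adjusted p = 0.0286). On the opposite strand, B430319G15Rik overlaps 7.8% of the exon bases of Plod2, and Znhit1 overlaps 9.3% of those of Plod3. The use of strand in counting is not stated.

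The makeup of the family therefore differed between groups while its sum was similar, at 98.8 ± 9.73 FPKM in CTR and 93.9 ± 2.72 FPKM in dKO. Plod2 held 44.4% ± 3.59 of this sum in CTR, from 39.1% to 48.3%, and 29.7% ± 3.40 in dKO, from 23.8% to 33.6%. Plod1 held 27.1% ± 4.16 and 37.3% ± 4.04. Plod2 exceeded Plod1 in all 6 CTR libraries, where the ratio of the former to the latter ran from 1.14 to 2.19 with a median of 1.65. In dKO the ratio ran from 0.543 to 1.02 with a median of 0.819. The ranges of this ratio did not overlap. These shares are given as descriptions, with no test.

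**Figure D3:**
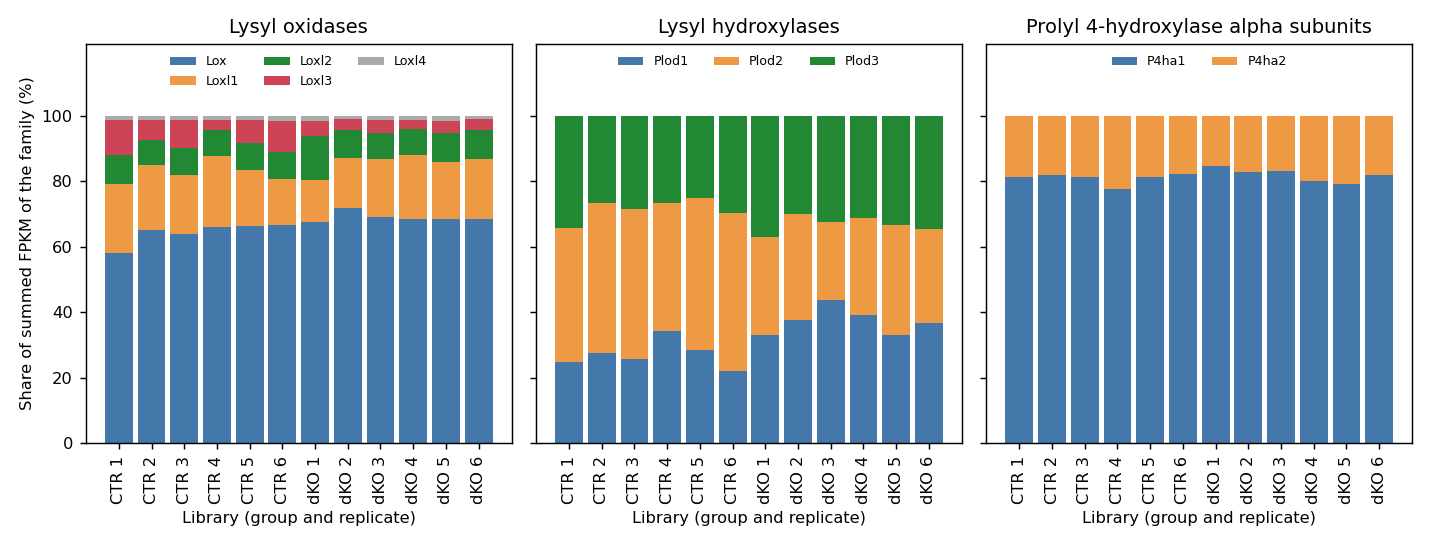
Share of each gene in the summed FPKM of its family (%), in each of the 12 libraries, as stacked bars for lysyl oxidases, lysyl hydroxylases and prolyl 4-hydroxylase alpha subunits. The Plod2 part is 39.1% or more in CTR and 33.6% or less in dKO, and the Loxl3 part is mostly thinner in dKO. The P4ha1 part of the sum of P4ha1 and P4ha2 is from 77.7% to 84.6% in all libraries. P4ha3, an alpha subunit that is not a member, is left out.

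Among the lysyl oxidases, Lox (ENSMUSG00000024529, chr18:52649136-52663110), the founding member, which crosslinks fibrillar collagen and elastin, had 386 FPKM in the lowest, 424 in the median and 463 in the highest CTR library and 415, 523 and 624 FPKM in dKO. Above all CTR libraries lay 4 of 6 dKO libraries, while dKO replicates 1 and 3 lay within the CTR range. The log2 fold change of 0.23 ± 0.10 (SE; 95% interval 0.02 to 0.45) did not pass the test after adjustment (limma adjusted p = 0.0662). Lox passed it without dKO replicate 1 (0.28, adjusted p = 0.0272), without dKO replicate 3 (0.29, adjusted p = 0.0269), and after median-of-ratios scaling (0.32, adjusted p = 0.0196), so its place relative to the threshold depends on single libraries and on scaling.

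Loxl1 (ENSMUSG00000032334, chr9:58195014-58220495), which acts in elastic fibre assembly, had 98.3, 127 and 140 FPKM in CTR and 81.2, 133 and 151 FPKM in dKO. The dKO libraries reached both below and above the CTR range. Its log2 fold change was −0.01 ± 0.15, with a 95% interval of −0.33 to 0.30 and limma adjusted p = 0.953, and the sign changed with the scaling. Loxl4 (ENSMUSG00000025185, chr19:42580711-42601252), a low member of the group with scavenger receptor domains, had 7.75, 8.59 and 9.57 FPKM in CTR and 7.03, 9.002 and 11.2 FPKM in dKO. Here too dKO was spread more widely around the same level, and the log2 fold change was 0.02 ± 0.10 (95% interval −0.19 to 0.24, limma adjusted p = 0.851), with the sign turned on rescaling to TPM.

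Loxl2 and Loxl3, both also with scavenger receptor domains, moved in opposite directions. Loxl2 (ENSMUSG00000034205, chr14:69846209-69933283), known for crosslinking collagen IV of basement membranes, had 50.2, 53.7 and 58.4 FPKM in CTR and 47.7, 68.3 and 82.0 FPKM in dKO. Above all CTR libraries lay 5 of 6 dKO libraries, and dKO replicate 3 lay below all of them. The log2 fold change was 0.29 ± 0.11 (SE; limma adjusted p = 0.0363). The call was lost on leaving out CTR replicates 2, 3, 4, 5 or 6 or dKO replicates 1, 2, 5 or 6, where the adjusted p reached 0.0787, and without dKO replicate 3 the log2 fold change was 0.38 (adjusted p = 0.00155). Of its exon bases, 17.1% overlap R3hcc1 on the opposite strand, which fell (−0.34 ± 0.08, limma adjusted p = 0.00212), and the use of strand in counting is not stated. The annotated gene Gm21451 shares 2348 bases with Loxl2 at 100% identity and was counted at 0.512 ± 0.192 FPKM in CTR and 0.0355 ± 0.0314 FPKM in dKO. By the study's methods only uniquely aligned reads were kept, which would drop reads that match both genes. The submitters' notes name other aligners, so reads of the shared bases may instead have been split between these genes. The Loxl2 value is therefore uncertain by an amount not known here.

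Loxl3 (ENSMUSG00000000693, chr6:83011152-83029543), which has been linked to collagen crosslinking in cartilage and palate, had 18.7, 50.4 and 71.9 FPKM in CTR and 21.1, 27.1 and 29.0 FPKM in dKO. The dKO libraries were close together, and the other 5 CTR libraries, from 42.3 FPKM upward, were above all of them, but CTR replicate 4 was below all of them. The dKO mean was 0.521 of the CTR mean, and the log2 fold change was −0.80 ± 0.26 (SE; limma adjusted p = 0.0185). Without CTR replicate 4 it was −1.06. Exons of Htra2 on the opposite strand cover 25.3% of its exon bases, and Htra2 had 15.6 ± 3.95 FPKM in CTR and 13.3 ± 1.78 FPKM in dKO (−0.19 ± 0.15, limma adjusted p = 0.295). As a share of the lysyl oxidase sum, which was 664 ± 31.8 FPKM in CTR and 732 ± 102 FPKM in dKO, Loxl3 went from 7.503% ± 2.84 to 3.63% ± 0.67, and Lox from 64.4% ± 3.25 to 69.0% ± 1.51. The ratio of Loxl3 to Loxl2 had a median of 0.955 in CTR and 0.382 in dKO, and for this ratio CTR replicate 4 was within the dKO range.

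Single libraries moved many members at once. CTR replicate 4 was the lowest CTR library for 7 of 10 members (Loxl2, Loxl3, Loxl4, Plod2, Plod3, P4ha1 and P4ha2), and CTR replicate 6 was the highest for 5 (Loxl4, Plod2, Plod3, P4ha1 and P4ha2). CTR replicate 4 also had the highest endothelial (257 FPKM), fibroblast (478 FPKM), macrophage (1297 FPKM) and lung epithelial (482 FPKM) marker sums and the lowest smooth muscle and pericyte (509 FPKM) and mesothelial (21.4 FPKM) sums of the CTR libraries, and CTR replicate 6 had the highest smooth muscle and pericyte sum (1428 FPKM). Among dKO libraries, replicate 3 was the lowest for 5 members (Lox, Loxl2, Loxl4, Plod2 and P4ha2) and had the highest macrophage sum (3793 FPKM) and the lowest endothelial (313 FPKM) and mesothelial (58.1 FPKM) sums. The part of these cells in the members' levels was not tested. Loxl3, Plod1, Plod2, P4ha1 and P4ha2 kept their direction and stayed past the threshold in each of the 12 fits that left out 1 library.

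**Figure D4:**
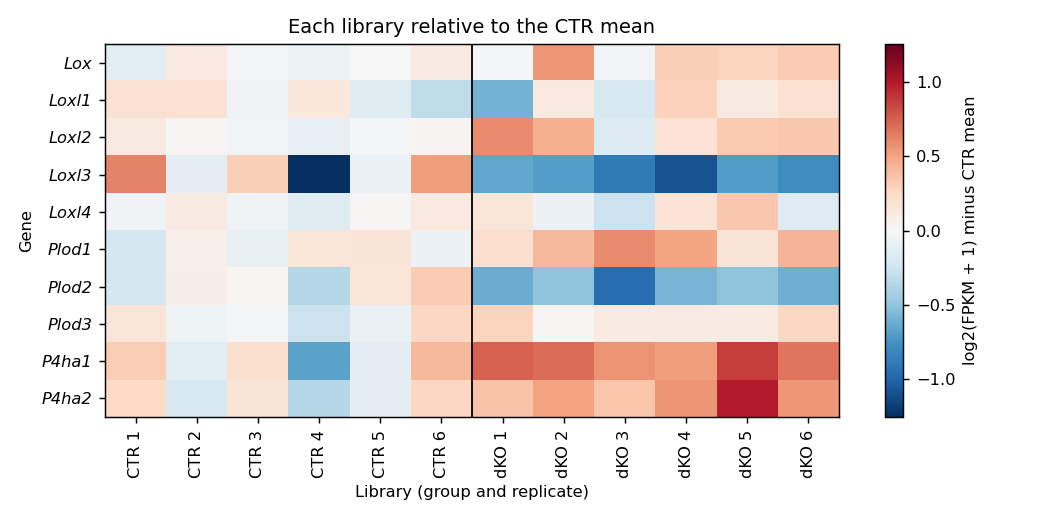
Difference of each library from the CTR mean (log2(FPKM + 1), colour scale in log2 units) for the 10 members in rows and the 12 libraries in columns, CTR left of the line and dKO right. P4ha1 and P4ha2 are red in all dKO columns and Plod2 is blue in all of them, while the CTR replicate 4 column is dark blue for Loxl3 and blue for P4ha1.

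The genes that work beside these enzymes were taken from 6 lists with 53 genes, of which 47 were tested. Of these, 15 were higher and 16 lower in dKO and 16 did not pass. Over all genes tested, 53.1% were called, 20.4% higher and 32.6% lower. These shares are the background for the counts of each list below. In the list of prolyl hydroxylation and collagen folding, 2 of 10 tested were higher and 6 lower, with a median log2 fold change of −0.35. Beside P4hb, the higher gene was Fkbp14, a prolyl isomerase of the endoplasmic reticulum, at 8.24 ± 1.91 FPKM in CTR and 10.7 ± 1.29 FPKM in dKO (0.35 ± 0.13, limma adjusted p = 0.0346). P3h3, which forms a complex with the Plod1 protein, fell from 21.8 ± 0.845 FPKM to 12.3 ± 2.62 FPKM (−0.80 ± 0.11, limma adjusted p = 9.64e-05). Plod1 and P3h3 thus moved in opposite directions. Of 3 tested genes listed for hydroxylysine glycosylation and telopeptide hydroxylation, 1 was higher and none lower. The higher gene was Slc39a13, a zinc transporter needed for lysyl hydroxylation, which rose from 7.63 ± 1.51 FPKM to 10.8 ± 1.44 FPKM (0.47 ± 0.12, limma adjusted p = 0.00574). This count leaves out Fkbp10, which is in the folding list and is named here after its values were seen. Fkbp10 fell from 57.6 ± 6.73 FPKM to 38.4 ± 3.97 FPKM (−0.57 ± 0.09, limma adjusted p = 0.000271).

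The substrates of crosslinking changed in 2 directions. Of 8 substrates tested, 5 were lower and 2 higher, and the median log2 fold change was −0.55. Col1a1, the main chain of fibrillar collagen, fell from 1173 ± 65.1 FPKM to 572 ± 128 FPKM (−1.07 ± 0.14, limma adjusted p = 4.75e-05), and Col3a1, the type III chain of vessel walls, from 544 ± 141 FPKM to 257 ± 84.8 FPKM (−1.12 ± 0.25, limma adjusted p = 0.00260). The basement membrane chains Col4a1 and Col4a2 rose, by 0.53 ± 0.10 and 0.53 ± 0.09 on the log2 scale (limma adjusted p = 0.000564 and 0.000349). Eln, the elastin gene, is named here after its values were seen, since it ran from 63.1 to 874 FPKM within CTR and from 27.0 to 607 FPKM within dKO, with replicate 4 the highest in both groups, and its change could not be told (−0.02 ± 0.74, limma adjusted p = 0.981). Thus P4ha1, P4ha2 and Plod1 were higher in the group in which the fibrillar chains were lower.

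In procollagen export and processing, 1 of 9 tested was higher and 3 lower. Pcolce2, an enhancer of the C-terminal procollagen proteinase, rose from 16.6 ± 6.73 FPKM to 26.0 ± 3.92 FPKM (0.67 ± 0.19, limma adjusted p = 0.00918), with CTR replicate 4 slightly above the highest dKO library. The N-terminal procollagen proteinases Adamts3 (−1.18 ± 0.29, limma adjusted p = 0.00470) and Adamts14 (−1.01 ± 0.35, limma adjusted p = 0.0264) both fell, from low levels, while Adamts2, the most abundant of these proteinases and named here after its values were seen, had 44.4 ± 6.74 FPKM in CTR and 43.7 ± 13.5 FPKM in dKO and did not pass the test (−0.07 ± 0.20, limma adjusted p = 0.771). Of 8 tested partners of lysyl oxidase and genes of copper delivery, 2 were higher and 1 lower. Fbln5, an elastic fibre protein that binds Loxl1, rose from 7.01 ± 0.627 FPKM to 14.6 ± 2.27 FPKM (0.95 ± 0.09, limma adjusted p = 6.98e-06), and Atox1, a copper chaperone, from 60.3 ± 6.73 FPKM to 94.3 ± 7.29 FPKM (0.64 ± 0.08, limma adjusted p = 3.61e-05). Efemp2, which binds Lox, fell from 65.6 ± 3.22 FPKM to 44.4 ± 6.75 FPKM (−0.56 ± 0.09, limma adjusted p = 0.000307). Fbln5 and Efemp2 thus went in opposite directions, whereas Loxl1 and Lox themselves did not pass the test. The other 5 tested genes of this list did not pass it either.

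P4ha1, P4ha2 and Plod2 are well-known hypoxia-responsive genes, and so reporters of hypoxia were set beside them. Of 9 tested, 7 were higher and 1 lower, against 20.4% higher and 32.6% lower over all genes tested. The median log2 fold change was 0.66, against −0.10 over all genes tested. Egln3, an oxygen sensor of the HIF pathway, went from 1.51 ± 0.193 FPKM to 10.1 ± 4.504 FPKM (2.07 ± 0.19, limma adjusted p = 3.45e-06), and Adm, which encodes adrenomedullin, from 68.8 ± 11.5 FPKM to 144 ± 33.3 FPKM (1.04 ± 0.14, limma adjusted p = 8.18e-05). Vegfa, a growth factor that hypoxia induces, fell from 47.8 ± 14.5 FPKM to 26.5 ± 2.34 FPKM (−0.77 ± 0.18, limma adjusted p = 0.00268). P4ha1 and P4ha2 therefore moved as most of these reporters did, and Plod2 moved as Vegfa did. Of the other members called, Plod1 and Loxl2 were also higher and Loxl3 was lower. The 4 remaining members, Lox among them, did not pass the test. Oxygen was not measured, and its part in these values was not tested.

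**Figure D5:**
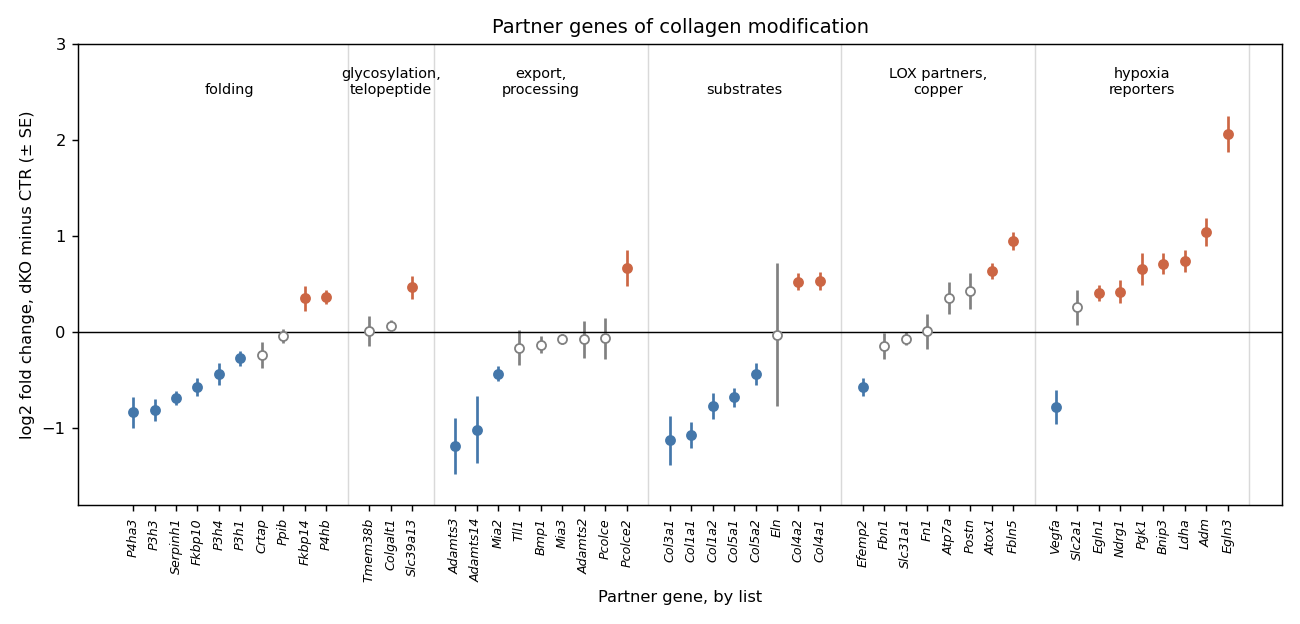
Log2 fold change ± SE (dKO minus CTR, on log2(FPKM + 1)) of the 47 tested partner genes, ordered within 6 lists, orange for a rise and blue for a fall past the test and open for no call. Most folding genes and fibrillar collagen chains lie below 0, most hypoxia reporters above it, and Egln3 is the highest at 2.07.

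Over the 12 libraries, the genes whose log2(FPKM + 1) was most like that of P4ha1 were Lmcd1, a LIM domain protein (Pearson r = 0.96), Eno1, a glycolytic enolase that has near-identical retrocopies (r = 0.95), and Vgll3, a transcription cofactor (r = 0.95). Those most like Loxl3 were Nucks1, a nuclear protein (r = 0.96), Stip1, a cochaperone (r = 0.96), and Acsl4, a fatty acid activating enzyme (r = 0.96). The libraries fall in 2 groups, which raises such values. After removal of the group means, r was 0.91, 0.89 and 0.87 for the genes like P4ha1 and 0.93, 0.94 and 0.93 for those like Loxl3. These genes were picked for their r over the same libraries, so the values are descriptions only.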

How the data were processed

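RNA of MLECs was sequenced in 12 libraries, 6 CTR and 6 dKO, grouped by the labels. The dKO columns of the deposited table are named after tamoxifen (TAM), which both groups received, and were matched to samples by the labels and replicate numbers. The authors deposited FPKM values for 28689 genes. By the study's methods, reads were trimmed with Trimmomatic and mapped to mm39 with STAR, and uniquely aligned reads were kept; the submitters' processing notes name instead Bowtie2 2.2.3, HISAT2 2.1.0, TopHat2 and DESeq2. The counting program, annotation and strand setting are not given in the sources used here. The labels' extraction text speaks of retina, although tissue and cell type are lung endothelial. Symbols and positions came from GENCODE vM39 (27706 genes matched, 983 not).

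Genes at 1 FPKM or more in 6 or more libraries (12467) were tested on log2(FPKM + 1), which understates changes of low genes, with limma 3.58.1 in R 4.3.3 (lmFit, eBayes with a trend), with no covariate and Benjamini-Hochberg adjustment over all 12467. Exact two-sided permutation tests used 924 splits. Whole fragments and lengths were recovered from the FPKM for 100% of genes (tolerance 0.005), and served for depth and for limma-voom as an alternative. Other alternatives were pseudocounts, filters, scalings, variance models, a replicate block and leaving out each library. The limma fit was tested on simulated fragments with known changes, and the other steps were not. Copies were sought with BLAST+  at 95% identity over at least 300 bases. Figures and tables used Python 3.11.15, pandas 2.3.3 and Matplotlib 3.10.9.

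Named genes were the 10 members, Sp1 and Sp3, up to 2 rises and 2 falls per partner list, P4hb, the most abundant marker of each type and the 3 genes most like the members with the largest rise and fall. The members and lists were chosen with earlier results of these data known.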

Additional observations from a re-analysis of the deposited data

Results flagged for a closer look

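In a group of 6 libraries, the highest or lowest was marked where its gap to the next was large for the group's range, a rule that chance meets in about 1 in 20 groups. Of 84 groups checked for 42 named genes, 6 were marked, where chance gives 4.2. Among members, Plod2 was at 22.0 FPKM in dKO replicate 3, below the 27.8 to 30.3 FPKM of the other dKO libraries, and P4ha2 was at 17.6 FPKM in dKO replicate 5, above 10.9 to 12.8 FPKM. Of the partner genes, Pcolce2 was at 29.9 FPKM in CTR replicate 4 (others 12.1 to 16.5), Fbln5 at 8.14 FPKM in CTR replicate 6 (others 6.42 to 7.06) and Egln3 at 18.9 FPKM in dKO replicate 5 (others 6.91 to 10.2). The macrophage marker Lyz2 was at 2953 FPKM in dKO replicate 3 (others 1336 to 1901).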

How the results depend on the processing

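Under 12 other settings and 12 fits that left out 1 library each, Loxl3, Plod1, Plod2, P4ha1 and P4ha2 kept their direction and stayed past the threshold in 24 of 24. The number of members called was 5 to 8 under the other settings and 5 to 7 without 1 library, that of higher members 3 to 6 and 3 to 5, and that of lower members 2 throughout. The Loxl2 call was lost with no filter (adjusted p = 0.0666), quantile normalization (0.0665) and rescaling to TPM (0.0720), and Lox passed with array weights (0.31, adjusted p = 0.0104); the cause was not tested. Loxl1, not called, turned to 0.0649 with array weights and 0.0792 with median-of-ratios scaling, and ran from −0.0749 to 0.104 without 1 library; Loxl4, not called, turned to −0.0222 on rescaling to TPM and ran from −0.0379 to 0.0838. With a filter of at least 5 FPKM, 4222 of 7891 genes tested were called, since fewer genes were tested. Without 1 library, 5772 to 6736 genes and 29 to 31 partner genes were called.

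With the replicate number as a block, 7 members passed, Lox being the added one (0.23, adjusted p = 0.0292), with 6955 genes called in all. Deviations of same-numbered libraries correlated at −0.108 to 0.565, and 2 of 6 libraries were most like their own number, so the numbers were not taken as pairs. Fibroblast marker sums were nonetheless highest in replicate 4 and lowest in replicate 1 in both groups. Endothelial sums were highest in CTR replicate 4 and dKO replicate 5, and macrophage sums in CTR replicate 4 and dKO replicate 3. Whether the numbers mark pairs is not given in the sources used here.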
